A study of Bos taurus with 4 samples.

Results

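The genes described here make cholesterol, sense it, move it out of lysosomes, store it as ester and send it out of the cell. All probes whose annotated gene symbol was one of 32 named genes were taken, which gave 59 of the 43794 probes on the array. MSMO1 and SC5D were found under the older symbols SC4MOL and SC5DL. Of these probes 48, for 30 of the 32 genes, were bright enough to be tested, where 26181 probes for 10976 genes were tested in all. STARD4 and ABCA1 had no tested probe. The genes were placed in 6 groups by role, of which 3, with 19 genes, hold the synthesis enzymes.

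Cells build cholesterol from acetyl-CoA through mevalonate, isoprenoids, squalene and lanosterol. The transcription factor SREBP2, encoded by SREBF2, drives most genes of this route when sterols are scarce, while the LXR receptors NR1H2 and NR1H3 respond to oxysterols and drive the efflux pumps ABCA1 and ABCG1. Granulosa cells line the follicle, use cholesterol to make steroids and, in the mouse, their cumulus relatives supply the oocyte with sterols that it makes poorly itself.

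The study asked which granulosa cell transcripts differ between cows that mostly gave incompetent oocytes (poor donors) and cows that mostly gave competent ones (good donors). Its 94 animals were Holstein cows of a commercial embryo facility, all stimulated with gonadotrophin and then left for a coasting interval before collection. RNA was measured in 4 poor-donor pools (5 to 8) and 4 good-donor pools (1 to 4), hybridised in pairs on 4 two-colour arrays. Arrays 1 and 2 held poor pools 5 and 6 in Cy3 against good pools 1 and 2 in Cy5, and arrays 3 and 4 held poor pools 7 and 8 in Cy5 against good pools 3 and 4 in Cy3. Neither the ages of the cows nor the cows behind each pool are given in the labels. A p-value thus rests on the spread between arrays with the same dye orientation, which may in part be technical. The fit, by limma, pulls that spread towards the one typical of all tested probes. It leaves out differences between the dye orientations. An SD with n = 4 is instead the spread over all 4 arrays.

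A ratio below is the log2 intensity of the poor-donor pool over that of the good-donor pool on the same array, after normexp background correction and loess. A level is the normalised log2 intensity of 1 pool, and levels are compared only within a probe. The share of probes above background ran from 64.3% to 69.0% over poor pools and from 66.0% to 72.7% over good pools. Of 12 granulosa markers, 11 were above background in all 8 pools, and the other, FOXL2, in 7. Some markers of other cells were also above background in all 8 pools. These were 2 of 4 red cell, 1 of 5 endothelial, 2 of 6 oocyte and 9 of 10 theca and stroma markers. They also included 8 of 10 leukocyte, 3 of 5 epithelial and 5 of 6 luteinizing markers. Epithelial KRT19 averaged 13.12 in poor pools and 13.49 in good pools. The oocyte markers counted, BMP15 and ZP3, lay near the floor of the array, averaging 6.60 and 6.56 in poor pools and 6.68 and 6.61 in good pools. Red cell HBA and HBB averaged 7.84 and 8.03 in poor pools, against 7.56 and 7.72 in good pools, and HBM was above background in no pool. Endothelial KDR was above background in every pool and PECAM1 in none. Stromal LUM and DCN averaged 11.67 and 10.04 in poor pools, against 9.81 and 10.03 in good pools, while theca CYP17A1 averaged 6.45 in both groups.

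At an adjusted p of 0.05 the limma fit called 0 of the 30 cholesterol genes different between poor and good donors, and 0% of all 10976 tested genes. The smallest adjusted p over the cholesterol genes was 0.822. An unadjusted p under 0.05 was found for 1 cholesterol gene, NPC1, and for 6.97% of all tested genes. NPC1 was higher in poor donors, as 3.08% of all genes were at that limit, while 0 cholesterol genes were lower at it, where 3.89% of all genes were. A looser limit that also asked for a difference of 1.5-fold or more was passed by 0 cholesterol genes and by 0.337% of all genes. Without array 2 it was passed by 5, HMGCS1, IDI1, FDFT1, CYP51A1 and DHCR7, all lower in poor donors, and by 1.52% of all genes in that fit, and none had an adjusted p under 0.05. The 95% interval of a cholesterol gene's log2 difference reached a median of 0.36 to either side, which is 1.28-fold, and it leaves out differences between the dye orientations. All values below therefore describe differences that did not pass the test.

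Most synthesis enzymes were lower in the poor pool on arrays 1 and 3, and few were on array 2. Of the 19 enzymes, 16 had a fitted ratio below 0, where 49.7% of all genes did, and their median was -0.19 against 0.0008 for all genes. Their mean ratio was -0.51 on array 1, 0.10 on array 2, -0.33 on array 3 and -0.02 on array 4. Ratios below 0 were found for 16 of the 19 enzymes on array 1, 5 on array 2, 17 on array 3 and 10 on array 4. The ratio was lower on array 1 than on array 2 and also lower on array 3 than on array 4 for 13 of the 19, or 68.4%, where 24.0% of all genes had this order. Arrays within each of these pairs share a dye orientation. The order was not a planned comparison and was read from these same ratios, so its share describes them and is no test. Without array 1 the median was -0.02 and without array 3 it was -0.09, while it was -0.37 without array 2 and also -0.37 without array 4.

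**Figure D1:**
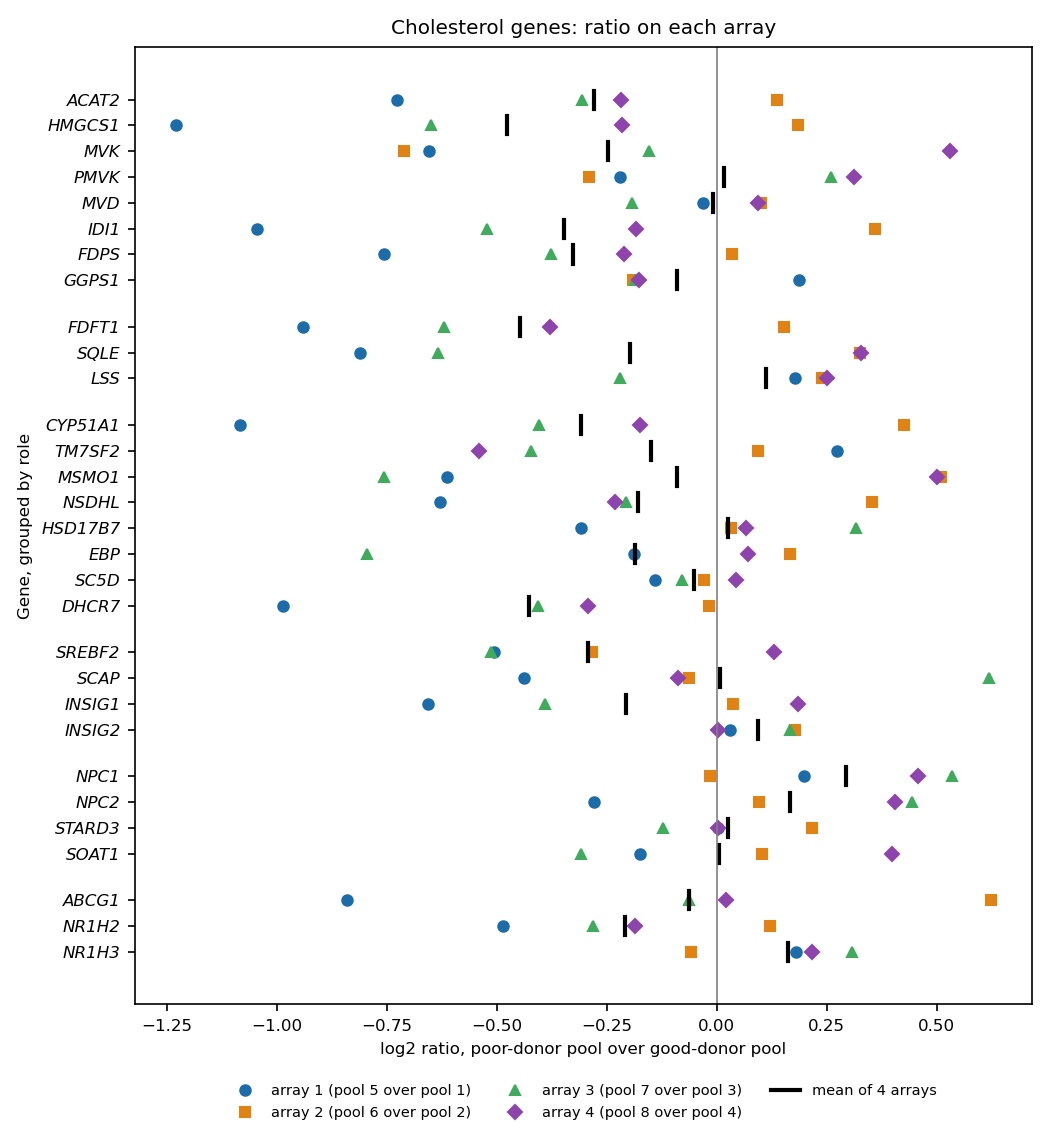
Log2 ratio of the poor-donor pool over the good-donor pool on each of the 4 arrays (symbols) and the mean of the arrays (black bars), for the brightest tested probe of each of the 30 cholesterol genes, grouped by role. Array 1 lies farthest to the left for 11 of the 19 synthesis enzymes in the upper 3 groups, and array 2 lies right of 0 for 14 of them.

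In the early part of the route, HMGCS1 makes HMG-CoA, the precursor of mevalonate. Its levels were 12.08, 12.51, 12.17 and 12.59 in poor pools 5 to 8, against 13.31, 12.32, 12.82 and 12.81 in good pools 1 to 4. Good pool 1 was the highest and poor pool 5 the lowest, and the donor groups overlapped because good pool 2 lay among the poor pools. The ratios on arrays 1 to 4 were -1.23, 0.18, -0.65 and -0.22, with a mean of -0.48 ± 0.61 (SD, n = 4; limma adjusted p = 0.834). Leaving out array 1 gave -0.12 for HMGCS1, leaving out array 2 gave -0.83, and the mean over its 3 probes gave -0.22.

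IDI1 and FDPS, which isomerise and condense the isoprenoid units into farnesyl diphosphate, repeated this order of arrays. IDI1 had levels of 9.27, 10.06, 9.78 and 9.78 in poor pools 5 to 8, against 10.32, 9.70, 10.30 and 9.97 in good pools 1 to 4. Its ratios of -1.05, 0.36, -0.52 and -0.18 averaged -0.35 ± 0.59 (SD, n = 4; limma adjusted p = 0.877). Poor pool 5 was again the lowest and good pool 1 the highest, and the fitted value without array 1 was 0.003. FDPS levels were 12.64, 12.94, 12.86 and 12.87 in poor pools, against 13.40, 12.91, 13.24 and 13.08 in good pools, so that only good pool 2 lay within the range of the poor pools. The FDPS ratios of -0.76, 0.03, -0.38 and -0.21 had a mean of -0.33 ± 0.33 (SD, n = 4; limma adjusted p = 0.830).

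MVK, the kinase that phosphorylates mevalonate, had another order. Its levels were 9.31, 9.14, 9.19 and 9.58 in poor pools 5 to 8, against 9.97, 9.85, 9.35 and 9.05 in good pools 1 to 4. Good pools 1 and 2 were the highest and good pool 4 the lowest of all 8 pools. Its ratios of -0.65, -0.71, -0.15 and 0.53 were thus above 0 on array 4 and below 0 on array 2, with a mean of -0.25 ± 0.58 (SD, n = 4; limma adjusted p = 0.832).

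The remaining genes of the early route differed less or were dim. ACAT2, which joins acetyl-CoA units, had ratios of -0.73, 0.14, -0.31 and -0.22, the order seen for HMGCS1. GGPS1, which makes geranylgeranyl diphosphate for protein prenylation and does not lead to sterols, had 0.19, -0.19, -0.19 and -0.18 and was thus higher in the poor pool on array 1. PMVK and MVD, the enzymes after MVK, had mean ratios of 0.02 ± 0.32 and -0.01 ± 0.14 (SD, n = 4), with levels between 6.75 and 7.39, near the floor of the array. All 8 genes of the early route were tested, and 7 had a fitted ratio below 0, with a median of -0.26.

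FDFT1, squalene synthase, takes the first step committed to sterols. Its levels were 11.11, 11.57, 11.22 and 11.38 in poor pools 5 to 8, against 12.05, 11.42, 11.84 and 11.76 in good pools 1 to 4. Good pool 2 was the only good pool within the range of the poor pools. The ratios of -0.94, 0.15, -0.62 and -0.38 averaged -0.45 ± 0.46 (SD, n = 4; limma adjusted p = 0.830), with -0.17 without array 1, -0.72 without array 2 and -0.22 for the mean over its probes.

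SQLE, which oxidises squalene and is a slow step of the route, differed from FDFT1 on array 4. It had levels of 10.60, 11.02, 10.51 and 11.25 in poor pools 5 to 8, against 11.41, 10.70, 11.15 and 10.92 in good pools 1 to 4. Its ratios were -0.81, 0.33, -0.63 and 0.33, a mean of -0.20 ± 0.61 (SD, n = 4; limma adjusted p = 0.939). Poor pools 6 and 8 were thus higher than their good partners, and poor pools 5 and 7 lower. LSS, which closes squalene epoxide into lanosterol, had levels of 7.57, 7.38, 7.05 and 7.57 in poor pools, against 7.39, 7.14, 7.27 and 7.32 in good pools. Its ratio was below 0 on array 3 alone, at -0.22, and the other arrays gave 0.18, 0.24 and 0.25.

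Among the enzymes that turn lanosterol into cholesterol, DHCR7, which takes the last step, was the 1 cholesterol gene whose donor groups did not overlap. Its levels were 7.89, 8.54, 8.18 and 8.31 in poor pools 5 to 8, against 8.88, 8.56, 8.59 and 8.60 in good pools 1 to 4. The gap between the groups was narrow, from 8.54 in poor pool 6 to 8.56 in good pool 2, and 2.58% of all genes had groups that did not overlap. Ratios of -0.99, -0.02, -0.41 and -0.29 put it below 0 on all 4 arrays, as 6.05% of all genes were, with a mean of -0.43 ± 0.41 (SD, n = 4; limma adjusted p = 0.830). Without array 1 the fitted value was -0.18, and with mean spot intensities it was -0.27.

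CYP51A1 removes a methyl group from lanosterol. It had levels of 12.10, 12.55, 12.11 and 12.57 in poor pools 5 to 8, against 13.18, 12.13, 12.51 and 12.74 in good pools 1 to 4. Its spread among good pools was wider than its difference between donor groups, since good pool 1 was the highest of all and good pool 2 close to the lowest poor pool. The ratios of -1.08, 0.43, -0.40 and -0.18 averaged -0.31 ± 0.62 (SD, n = 4; limma adjusted p = 0.9), and leaving out array 1 gave 0.07.

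MSMO1, the next demethylating oxidase, alternated between arrays. Levels were 12.36, 13.06, 12.19 and 12.94 in poor pools 5 to 8, against 12.97, 12.55, 12.95 and 12.44 in good pools 1 to 4. Poor pools 6 and 8 and good pools 1 and 3 were high, and poor pools 5 and 7 and good pools 2 and 4 were low. Its ratios of -0.61, 0.51, -0.76 and 0.50 left a mean of -0.09 ± 0.69 (SD, n = 4; limma adjusted p = 0.978), so the difference on each array was wider than the mean of the 4.

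NSDHL and TM7SF2 act on the same sterol nucleus, as a decarboxylating dehydrogenase and a reductase. NSDHL had levels of 10.17, 10.12, 10.38 and 10.21 in poor pools 5 to 8, against 10.80, 9.76, 10.58 and 10.44 in good pools 1 to 4. Its ratios were -0.63, 0.35, -0.21 and -0.23, and the poor pools lay close together, between the extremes of good pools 1 and 2. The NSDHL mean was -0.18 ± 0.40 (SD, n = 4), and mean spot intensities in place of medians gave a fitted value of -0.74. Its spot on array 3 carries the scanner's mark for ignored cells and was kept. TM7SF2 ran otherwise, with levels of 9.79, 9.41, 9.05 and 9.14 in poor pools 5 to 8 and 9.52, 9.32, 9.48 and 9.68 in good pools 1 to 4. Its ratios of 0.27, 0.09, -0.42 and -0.54 were above 0 where the poor pools carried Cy3 and below 0 where they carried Cy5, and its limma adjusted p was 0.830.

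The other enzymes of this stretch were EBP, HSD17B7 and SC5D. EBP, a sterol isomerase, had ratios of -0.19, 0.17, -0.80 and 0.07, with poor pool 7 the lowest of the 8 pools. The keto-reductase HSD17B7 had -0.31, 0.03, 0.32 and 0.07, and SC5D, a desaturase, -0.14, -0.03, -0.08 and 0.04. Of the 8 enzymes after lanosterol, 7 had a fitted ratio below 0, with a median of -0.16.

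**Figure D2:**
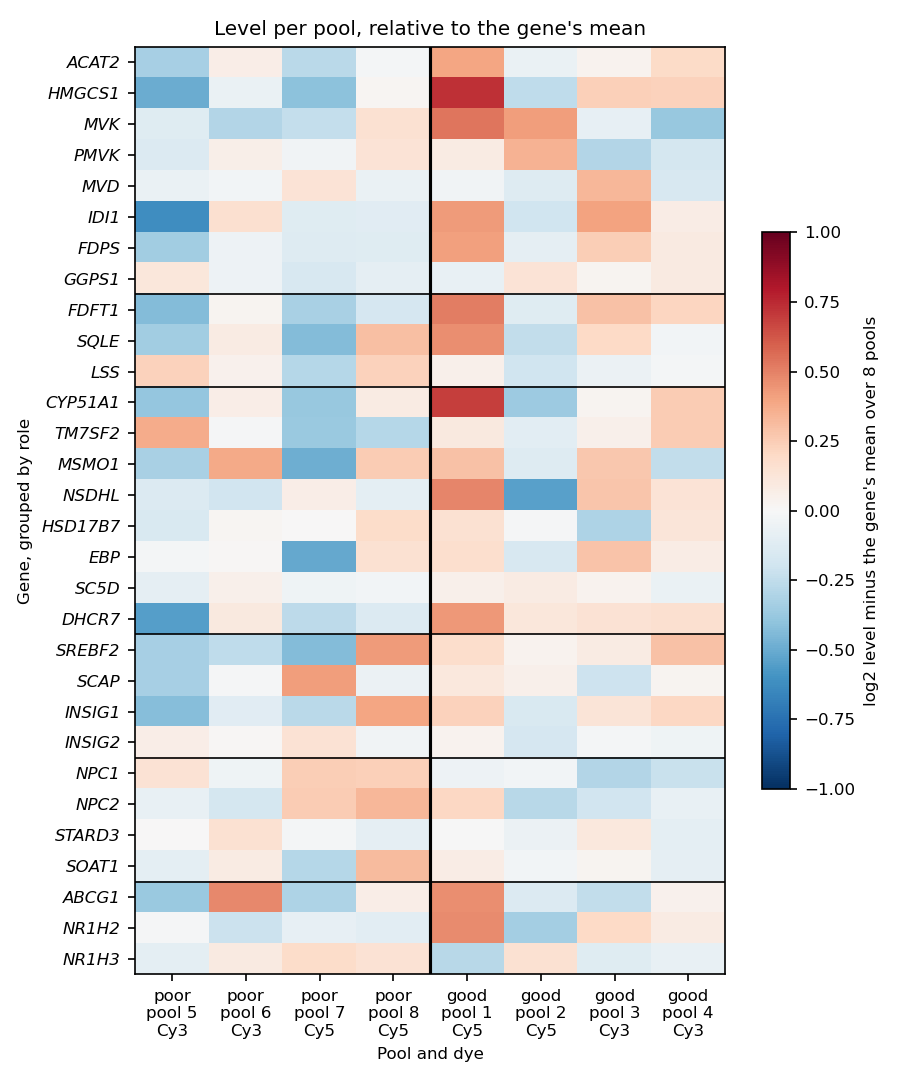
Level of each of the 30 cholesterol genes in the 4 poor-donor pools (left) and the 4 good-donor pools (right), as log2 level minus the gene's mean over the 8 pools, with each pool's dye below it. Good pool 1 is the highest pool for 10 of the 19 synthesis enzymes (rows down to DHCR7), and poor pools 5 and 7 are the lowest for 8 and 6 of them.

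Seen by pool, the synthesis enzymes were lowest in poor pools 5 and 7 and highest in good pool 1. After each gene was centred on its mean over the 8 pools, their mean level was -0.20, 0.02, -0.22 and 0.02 in poor pools 5 to 8, against 0.31, -0.08, 0.11 and 0.04 in good pools 1 to 4. Poor pool 5 was the lowest for 42.1% of the enzymes and 12.3% of all genes, and poor pool 7 for 31.6% and 14.2%. Good pool 1 was the highest for 52.6% of the enzymes and 14% of all genes. Good pool 2 lay below poor pools 6 and 8, so the donor groups were not separated by this measure. The range over the 4 poor pools was wider than the difference between donor means for 18 of the 19 enzymes and 95.1% of all genes, and the range over the 4 good pools for 18 enzymes and 95.1% of all genes. Levels of this kind also carry any dye difference between pools, which is not removed.

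These enzymes also varied more between arrays than most genes. The median SD of the ratio over the 4 arrays was 0.40 for the 19 enzymes, against 0.22 for all genes. Bright genes varied more in general, so the genes were divided at a mean level of 8, a limit chosen after the values were seen. Among genes at or above it the median SD was 0.45 for 14 synthesis enzymes, against 0.27 for all 5235 genes. In this bright part 13 of the 14 enzymes had a fitted ratio below 0 with a median of -0.26, while 47.9% of all genes did with a median of 0.007. The 5 dimmer enzymes had a median of -0.01.

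Several genes were read by more than 1 probe, which shows how far the order of arrays depends on the probe. The 3 tested CYP51A1 probes gave -1.08, -0.66 and -0.77 on array 1, 0.43, 0.23 and 0.46 on array 2, -0.40, -0.40 and -0.28 on array 3, and -0.18, -0.21 and -0.11 on array 4. All of them thus put the 4 arrays in 1 order. FDPS had 4 tested probes, all with a fitted ratio below 0, from -0.33 to -0.11, and the dimmest was the 1 above 0 on array 1, at 0.12.

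Probes also differed in sign on single arrays for HMGCS1 and, in its dimmest probe, for MSMO1. The brightest HMGCS1 probe and a dimmer one gave -1.23 and -0.75 on array 1 and -0.22 and -0.08 on array 4, whereas another HMGCS1 probe gave -0.09 and 0.44. That probe was thus above 0 on arrays 2 and 4, as MSMO1 was. Of the 4 MSMO1 probes, the 3 brightest agreed in sign on every array, and the dimmest had ratios between -0.06 and 0.19. A dim FDFT1 probe gave a fitted ratio of 0.001 beside -0.45 for the bright one. Of the 11 cholesterol genes with at least 2 tested probes, 5 had the same sign for all probes.

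**Figure D3:**
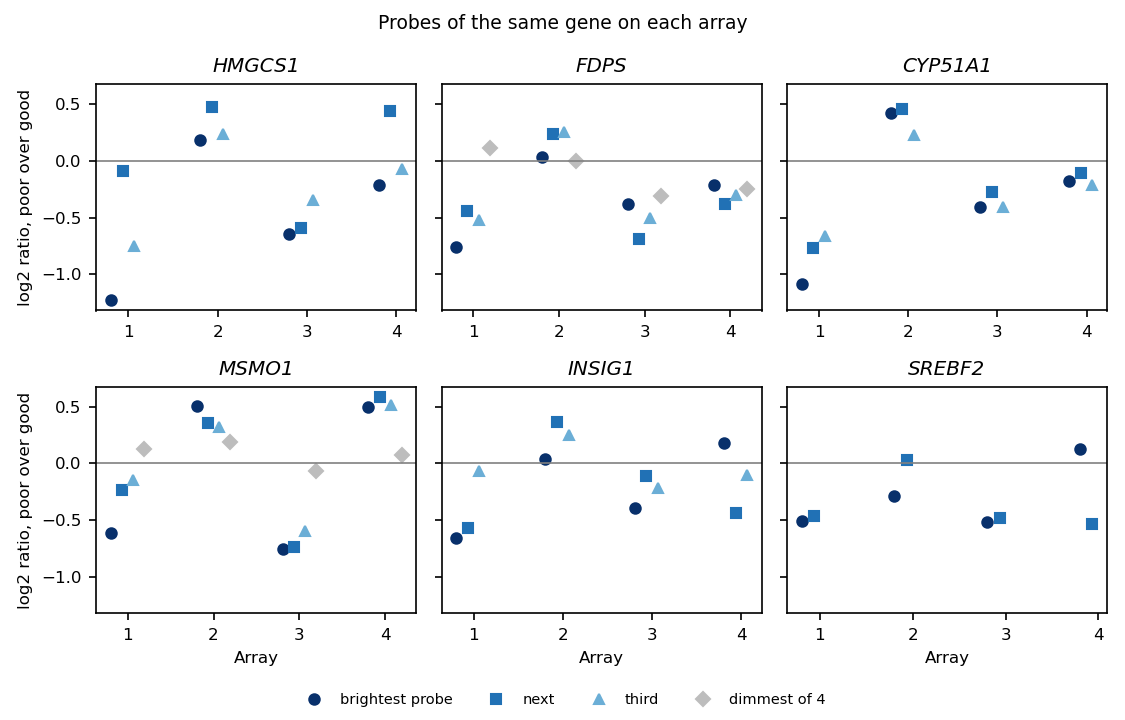
Log2 ratio of poor over good on arrays 1 to 4 for every tested probe of 6 genes, from the brightest (dark) to the dimmest (light). Probes of CYP51A1 keep 1 order of arrays, while 1 HMGCS1 probe lies at 0.44 on array 4 where the other probes of that gene lie at -0.22 and -0.08.

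The genes that sense sterol were mixed. SREBF2 had levels of 12.43, 12.50, 12.32 and 13.18 in poor pools 5 to 8, against 12.93, 12.79, 12.84 and 13.05 in good pools 1 to 4. Poor pools 5, 6 and 7 were below every good pool, and poor pool 8 was above them all. Its ratios of -0.51, -0.28, -0.51 and 0.13 averaged -0.29 ± 0.30 (SD, n = 4; limma adjusted p = 0.830), and leaving out array 3 gave -0.13. Another bright SREBF2 probe gave -0.46, 0.03, -0.48 and -0.54, a mean of -0.36 ± 0.26 (SD, n = 4; limma adjusted p = 0.822). The 2 SREBF2 probes agreed on arrays 1 and 3 and differed in sign on arrays 2 and 4.

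INSIG1 retains the SREBP complex in the endoplasmic reticulum and is itself a target of SREBP. Its levels were 8.77, 9.07, 8.93 and 9.58 in poor pools 5 to 8, against 9.43, 9.04, 9.32 and 9.40 in good pools 1 to 4. The ratios of its brightest probe, -0.66, 0.04, -0.39 and 0.18, had the signs of SQLE on every array. Their mean was -0.21 ± 0.39 (SD, n = 4; limma adjusted p = 0.889). On array 4 the dimmer INSIG1 probes were below 0, at -0.44 and -0.10, where SQLE was at 0.33. All 3 INSIG1 probes had a fitted ratio below 0, from -0.21 to -0.03.

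INSIG2 has the same retention role and is less tied to SREBP. It had levels of 8.73, 8.68, 8.81 and 8.63 in poor pools, against 8.70, 8.50, 8.65 and 8.62 in good pools, with a mean ratio of 0.09 ± 0.09 (SD, n = 4; limma adjusted p = 0.882). INSIG2 was higher in the poor pool on all 4 arrays, as 5.65% of all genes were, but a dimmer INSIG2 probe gave -0.06. SCAP, the escort of SREBP, had levels of 9.86, 10.18, 10.61 and 10.13 in poor pools 5 to 8, against 10.30, 10.24, 9.99 and 10.22 in good pools 1 to 4. Poor pool 7 was the highest for SCAP, the opposite of its place for SREBF2, and the ratios were -0.44, -0.06, 0.62 and -0.09.

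The genes that carry cholesterol out of lysosomes had fitted ratios above 0. NPC1, the membrane protein that exports cholesterol from the lysosome, had levels of 8.48, 8.29, 8.58 and 8.57 in poor pools 5 to 8, against 8.28, 8.30, 8.04 and 8.11 in good pools 1 to 4. Poor pools 5, 7 and 8 were above every good pool, and poor pool 6 lay just below good pool 2. The ratios of 0.20, -0.02, 0.54 and 0.46 averaged 0.29 ± 0.25 (SD, n = 4), and NPC1 had the smallest p of the cholesterol genes in limma, at 0.0116 unadjusted and 0.822 adjusted. It kept its sign without each array in turn, between 0.24 and 0.35.

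NPC2, the soluble partner that hands cholesterol to NPC1, had levels of 9.52, 9.41, 9.85 and 9.92 in poor pools 5 to 8, against 9.80, 9.32, 9.40 and 9.52 in good pools 1 to 4. Poor pools 7 and 8 were the highest, and good pool 1 came next. Its ratios of -0.28, 0.10, 0.44 and 0.41 had a mean of 0.17 ± 0.34 (SD, n = 4; limma adjusted p = 0.832), and the fitted value was 0.07 without array 2 and 0.26 without array 1. STARD3, a late endosomal sterol carrier, was dim, at 6.49, 6.64, 6.47 and 6.40 in poor pools and 6.49, 6.43, 6.59 and 6.39 in good pools. It was above background in all 4 poor pools and in 3 of the 4 good pools.

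SOAT1 esterifies cholesterol for storage. Its levels of 11.51, 11.68, 11.32 and 11.92 in poor pools 5 to 8 enclosed those of 11.68, 11.58, 11.63 and 11.52 in good pools 1 to 4. The ratios of -0.17, 0.10, -0.31 and 0.40 had a mean of 0.01 ± 0.31 (SD, n = 4; limma adjusted p = 0.998). They were below 0 on arrays 1 and 3 and above 0 on arrays 2 and 4, as for SQLE and the brightest INSIG1 probe. All 4 tested genes of egress, transfer and esterification had a fitted ratio above 0, where 5525 of all 10976 genes did, with a median of 0.10. SOAT1, at 0.005, and STARD3, at 0.025, were close to 0 and changed sign when an array was left out. The carrier STARD4, an SREBP target, had 3 probes, and the brightest was above background in 2 of 4 poor pools and 1 of 4 good pools, so its difference was not detectable here.

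Of the efflux genes, ABCA1 was above background in 2 of 4 poor pools and 2 of 4 good pools and was not tested. ABCG1, which passes cholesterol to high-density lipoprotein, was dim, with levels of 6.55, 7.41, 6.62 and 6.99 in poor pools 5 to 8, against 7.39, 6.79, 6.68 and 6.97 in good pools 1 to 4. Poor pool 6 and good pool 1 were the highest. Its ratios were -0.84, 0.62, -0.06 and 0.02, with a mean of -0.06 ± 0.60 (SD, n = 4; limma adjusted p = 0.981), and the fitted value was 0.30 without array 1 and -0.43 without array 2.

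The LXR receptors had opposite signs. NR1H2, the widely expressed form, had levels of 10.11, 9.91, 10.04 and 10.02 in poor pools 5 to 8, against 10.60, 9.79, 10.32 and 10.21 in good pools 1 to 4. Its ratios of -0.49, 0.12, -0.28 and -0.19 put the arrays in the order seen for HMGCS1, with a mean of -0.21 ± 0.25 (SD, n = 4; limma adjusted p = 0.841). NR1H3, the form induced in lipid-rich cells, had levels of 9.48, 9.68, 9.77 and 9.73 in poor pools 5 to 8, against 9.30, 9.73, 9.46 and 9.51 in good pools 1 to 4. Good pool 1 was the lowest for NR1H3 and the highest for NR1H2. The NR1H3 ratios of 0.18, -0.06, 0.31 and 0.22 averaged 0.16 ± 0.16 (SD, n = 4; limma adjusted p = 0.830), and a dim NR1H3 probe gave 0.02.

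Synthesis was then set against efflux on each array. The 3 tested efflux genes were the dim pump ABCG1 and the LXR receptors NR1H2 and NR1H3, so this side mostly reads regulators rather than export itself. Their mean ratio was -0.38, 0.23, -0.01 and 0.02 on arrays 1 to 4, so it followed the synthesis enzymes on arrays 1 and 2. Synthesis minus efflux was -0.13, -0.13, -0.32 and -0.04, below 0 on all 4 arrays, with a mean of -0.16 ± 0.12 (SD, n = 4). The mean difference stayed between -0.19 and -0.10 when each array was left out. Only 3 genes make up the efflux side, whose own mean had an SD over arrays of 0.25. No test is given, because the genes were chosen with earlier results of these data known.

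**Figure D4:**
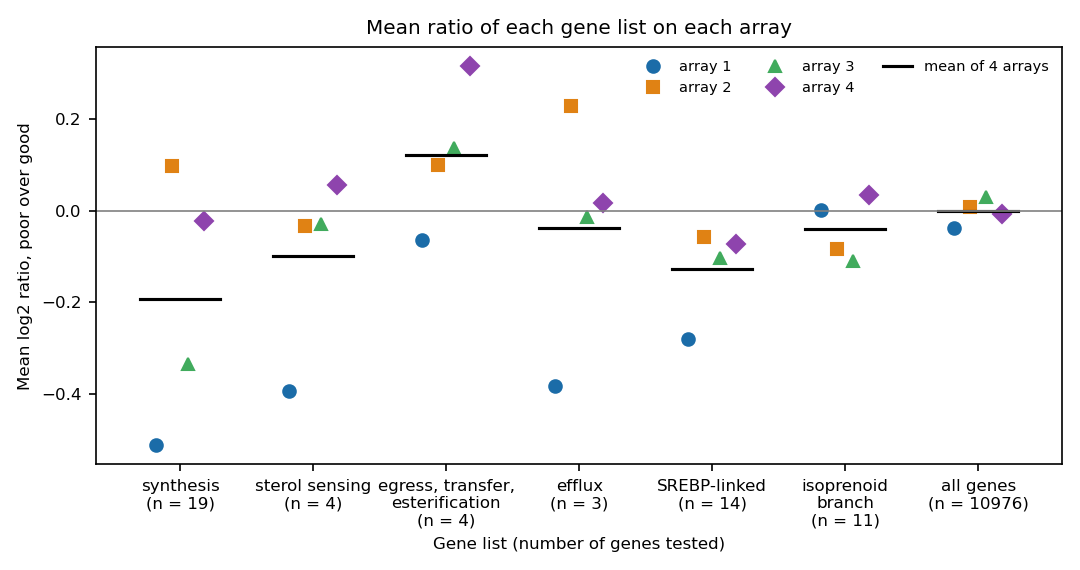
Mean log2 ratio of poor over good on each array (symbols) and over the 4 arrays (bars) for lists of cholesterol genes, 2 neighbouring lists and all tested genes. The synthesis enzymes lie at -0.51 and -0.33 on arrays 1 and 3 and at 0.10 and -0.02 on arrays 2 and 4, while all genes lie between -0.04 and 0.03.

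Other genes of the pathway were read from 6 lists with 88 genes, of which 75 had a named probe and 67 were tested. None passed an adjusted p of 0.05 in limma, 9 had an unadjusted p under 0.05 (6.97% of all genes), and 0 passed the looser limit. Over these genes 40 had a fitted ratio below 0 and 27 above 0, with a median of -0.04. Genes that SREBP factors drive outside the route had 12 of 14 tested members below 0, where 49.7% of all genes were, and a median of -0.10. Its mean ratios were -0.28, -0.06, -0.10 and -0.07 on arrays 1 to 4. PCYT2, an enzyme of phosphatidylethanolamine synthesis, had -0.26 ± 0.26, and TMEM97, a sterol-responsive partner of NPC1, had -0.33 ± 0.31 (SD, n = 4; limma adjusted p = 0.822 for both).

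The transcription factor of lipid synthesis SREBF1, itself an LXR target, had levels of 8.95, 9.34, 8.83 and 9.15 in poor pools 5 to 8, against 9.86, 9.33, 9.36 and 9.87 in good pools 1 to 4. Poor pool 6 stood with good pools 2 and 3, and the other poor pools lay below all good pools. Its ratios were -0.91, 0.007, -0.52 and -0.72, with a mean of -0.54 ± 0.40 (SD, n = 4; limma adjusted p = 0.823), and the fitted value was -0.31 without array 1 and -0.77 without array 2. In the same list of regulators and remaining enzymes RNF139, a ubiquitin ligase, had 0.20 ± 0.34. That list had a median of -0.05 over 10 genes.

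Genes of lysosomes, transfer and ester turnover had a median of 0.03 over 16 genes. LIPA, the lysosomal acid lipase that frees cholesterol from lipoprotein esters, had ratios of -0.05, 0.14, 1.38 and 0.46, highest on array 3, with a mean of 0.48 ± 0.64 (SD, n = 4) and 0.25 without array 3. OSBP, which exchanges cholesterol between the endoplasmic reticulum and the Golgi, was below 0 on all 4 arrays, as 6.05% of all genes were. Its ratios were -0.40, -0.05, -0.33 and -0.62 (limma adjusted p = 0.822). Its levels of 8.43, 8.64, 8.61 and 8.48 in poor pools 5 to 8 lay below all of 8.83, 8.69, 8.94 and 9.10 in good pools 1 to 4. Donor groups did not overlap for 2.58% of all genes. Lipoprotein uptake genes had a median of -0.11 over 5 genes, with MYLIP, the ligase that degrades the LDL receptor, at 0.24 ± 0.26 and LRPAP1, a chaperone of related receptors, at -0.20 ± 0.55.

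The efflux and oxysterol list had a median of 0.001 over 11 genes. CYP27A1, which makes an oxysterol in mitochondria, was above 0 on all 4 arrays, as 5.65% of all genes were. Its ratios were 0.60, 0.17, 0.11 and 0.20, and ABCA5 had 0.11 ± 0.23. The isoprenoid branch, which uses farnesyl diphosphate for prenylation, dolichol and ubiquinone, had a median of -0.07 over 11 genes and a mean ratio of 0.0008, -0.08, -0.11 and 0.03 on arrays 1 to 4. It thus lacked the low value of array 1 seen for the synthesis enzymes, and the difference between these lists was not tested. DHDDS, of dolichol synthesis, had -0.19 ± 0.31 and FNTB, a farnesyltransferase subunit, -0.16 ± 0.10.

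Marker lists of cells that the pools could hold also differed between arrays. The 10 leukocyte markers, 8 of them above background in all pools, had a mean ratio of 0.04, 0.61, -0.57 and 0.02 on arrays 1 to 4, with summed log2 levels of 10.4 to 11.1 in poor-donor and 10.3 to 11.3 in good-donor pools. The 6 luteinizing markers, 5 of them above background in all pools, had -1.10, 1.15, 1.29 and -0.51, with sums of 13.8 to 15.0 and 13.3 to 14.9 in poor-donor and good-donor pools. Among them the side-chain cleavage enzyme CYP11A1, which turns cholesterol into pregnenolone, had -0.67, 0.98, -0.003 and -0.07. STAR, which brings cholesterol to that enzyme, had -2.51, 2.27, 4.25 and -1.14. The 4 red cell markers had 0.23, 0.73, -0.65 and 0.26, with sums of 8.88 to 9.85 in poor-donor and 8.67 to 10.04 in good-donor pools. The leukocyte and red cell means, and the epithelial mean given below, thus had the order seen for most synthesis enzymes. That order is lower on array 1 than on array 2 and lower on array 3 than on array 4. HBB ran otherwise, at 1.95 and 0.61 on arrays 1 and 2, and the red cell mean includes HBM, above background in no pool. Of the epithelial markers, OVGP1 and the dim CDH1 had this order, and KRT19, KRT7 and EPCAM did not. The luteinizing mean had this order on arrays 1 and 2 alone.

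Epithelial markers, 3 of 5 above background in all pools, had mean ratios of -1.39, -0.15, 0.10 and 0.59, and summed levels of 12.8 to 14.2 in poor-donor and 12.8 to 14.4 in good-donor pools. OVGP1, above background in 3 of 4 poor pools, had the widest ratios of them, at -4.54, 0.54, -0.29 and 2.55. KRT19 had 0.05, -1.22, -0.04 and -0.27, KRT7 -0.53, -0.38, 0.37 and -0.02, and EPCAM -1.86, 0.21, 0.50 and 0.50. Granulosa markers had -0.26, -0.29, 0.40 and 0.23, with sums of 16.7 to 17.8 and 16.9 to 17.9 in poor-donor and good-donor pools. Theca and stroma markers, 9 of 10 above background in all pools, had -0.10, 0.65, 0.88 and 0.10, with sums of 13.9 to 14.2 in poor-donor and 13.1 to 13.9 in good-donor pools. The part of these cells in the cholesterol gene ratios was not tested, and in such pools fewer cells of a type and less RNA per cell cannot be told apart.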

How the data were processed

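Pools of granulosa cells from Holstein cows were compared on 4 two-colour oligonucleotide arrays. Per the labels' protocols, RNA was linearly amplified over 2 rounds and coupled to Cy3 or Cy5. Per the file headers, the scanner output gives each spot's intensity and that of its surroundings, not normalized, and the authors also deposited a log2 ratio per probe by an unstated method. Compared with ratios from the scanner output, it ran as poor over good (correlation 0.971 to 0.980, slope 1.16 to 1.22, medians of 0.0005, 0.0002, 0.0026 and -9.92e-05), with its exact scale and centring unknown.

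Median intensities were corrected by normexp (offset 50) and loess (span 0.3, control spots at weight 0) in limma 3.58.1 under R 4.3.3. The offset shrinks the ratios of dim probes. Probes above background (2 SD over the mean of 153 negative controls) in all 4 pools of a donor group were kept. Levels per pool came from Aquantile scaling. Symbols came from the platform annotation, and RefSeq's ARS-UCD2.0 table held 20025 of them as they stand and 1524 as synonyms, with 241 found in neither way and kept. A gene stands for its brightest kept probe, and no coordinates are printed because no genome build is stated for the probes.

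limma fitted poor over good with a probe-specific dye term, leaving 2 residual and 2.51 prior degrees of freedom, with Benjamini-Hochberg adjustment over all 26181 probes. Array pairs of 1 dye orientation carry the dye term, which cannot be told apart from differences between the array pairs. The fit was tested on simulated data. Full values were given for the 3 genes of smallest p and the 3 of widest range in each role group, and for the 2 genes of smallest p in each other list. The members and lists were chosen with earlier results of these data known. A search for promoter motifs that had been planned was not run, since no sequences were used here. No correlation between comparisons and no list test is given. The number of arrays limits the precision.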

Additional observations from a re-analysis of the deposited data

Results flagged for a closer look

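The level of DHCR7 in good pool 1, at 8.88, stood apart from the other good pools, which lay between 8.56 and 8.60, and the gap was 0.865 of the range of the 4 pools. The pools of a donor group were compared in this way for 30 genes and 2 donor groups, or 60 sets of 4 pools, and this was the 1 set found, where chance alone marks about 1 in 20. The cause was not tested.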

How the results depend on the processing

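No cholesterol gene and no other pathway gene passed the adjusted threshold under any alternative that was run. At an unadjusted p under 0.05 the count of the 30 cholesterol genes was 1 in the reported fit, where 6.97% of all genes reached that limit. It was 2 with local background subtracted (6.57% of all genes in that fit), with the authors' ratios (6.60%) or with the mean over a gene's probes (5.35%), 3 without the dye term (5.43%), 4 with mean spot intensities (8.60%) and 5 in the separate-channel fit (12.02%). It was 3, 11, 0 and 4 without arrays 1 to 4, where 7.6%, 11.66%, 4.60% and 6.40% of all genes reached it. The looser limit was passed by 0 to 5 cholesterol genes and by 0 to 2 other pathway genes when an array was left out, with both highest counts found without array 2, where 1.52% of all genes passed it, and by 0 of each under every other alternative. The median of the synthesis enzymes ran from -0.21 with median centring to -0.17 with mean spot intensities, and from -0.37 without array 2 to -0.02 without array 1. The median of the efflux genes ran from -0.36 without array 2 to 0.10 without array 1. Synthesis minus efflux was -0.09 with the mean over a gene's probes, against -0.16 with the brightest probe.

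Of 419 single gene values under alternatives that kept all arrays, 411 kept their sign. The exceptions were SCAP at -0.024 and SOAT1 at -0.053 with median centring, MVD at 0.0017, STARD3 at -0.0013, SOAT1 at -0.0041 and ABCG1 at 0.023 with mean spot intensities, and PMVK at -0.016 and MSMO1 at 0.0021 with the mean over a gene's probes. Values that kept their sign but moved by over 1.5 times with mean spot intensities included NSDHL, at -0.74, DHCR7, at -0.27, INSIG1, at -0.10, MVK, at -0.15, EBP, at -0.07, DHDDS, at -0.03, FNTB, at -0.04, and SREBF1, at -0.35. Of 168 values with an array left out, 145 kept their sign. The genes that did not ran from -0.0024 to 0.034 for PMVK, from -0.079 to 0.064 for MVD, from -0.70 to 0.0034 for IDI1, from -0.19 to 0.0031 for GGPS1, from -0.48 to 0.087 for SQLE, from -0.0057 to 0.23 for LSS, from -0.69 to 0.068 for CYP51A1 and from -0.40 to 0.22 for MSMO1. They ran from -0.42 to 0.068 for NSDHL, from -0.059 to 0.11 for HSD17B7, from -0.40 to 0.031 for EBP, from -0.17 to 0.19 for SCAP, from -0.028 to 0.079 for STARD3, from -0.17 to 0.18 for SOAT1, from -0.43 to 0.30 for ABCG1 and from -0.41 to 0.0061 for LRPAP1. The cause was not tested. Leaving out the spots marked as ignored was added after seeing the data and changed no count.

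Each ratio already sets a poor pool against the good pool of its own array, so the fit is paired by array. No further pairing between the 2 sets of arrays was possible, because they share no replicate number. Dim genes such as MVD, PMVK, LSS, STARD3 and ABCG1 lie near background, where the offset shrinks a ratio. The pools hold unstated numbers of cows.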
